A study of Mus musculus with 10 samples.

Results

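The 32 genes described here mark dividing cells. They were chosen by name, from all 53167 genes listed in the count table, and fall into 12 genes of the G1/S transition and DNA replication and 20 genes of the G2/M transition and mitosis. All 32 were present in the table and all 32 passed the filter on low counts, with means of 258 to 10461 counts per library. The samples were primary epithelial cells isolated from wild-type mouse mammary gland and cultured in medium with 10% serum. Biglycan, a small matrix proteoglycan, was added as protein at 100 ng/mL to the 5 samples of the BGN group and left out of the 5 samples of the Control group. RNA was poly-A selected and sequenced in bulk. Sources used here give no mouse strain, age or duration of stimulation. They also do not say if each replicate is its own animal or culture, and the p-values therefore measure only the spread among these samples, which may be technical.

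Cells that enter division first switch on genes for DNA replication through E2F transcription factors. These are released when cyclins and their kinases inactivate the retinoblastoma protein. The MCM helicase then opens the DNA, PCNA clamps the polymerases onto it, and ribonucleotide reductase and thymidylate synthase supply nucleotides. Later genes for chromosome segregation rise under the MuvB complex with B-MYB and FOXM1, and cyclin B with CDK1 drives entry into mitosis. In the mammary gland, epithelial division accompanies ductal growth at puberty and alveolar growth in pregnancy, and serum-fed cultures of this epithelium divide as well.

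The promoters of these genes are shown first, as a description of sequence. Whether their motifs relate to the levels of the members was not tested. RefSeq promoter windows (build GRCm38.p6, from 250 bases before to 50 after the start) were matched by symbol for 25 of the 32 genes, in 26 windows. Capitals mark the CCAAT box (CCAAT), the cell cycle genes homology region or CHR (TTTGAA) and a form of the E2F site (TTTNNCGC), each searched on both strands. Ccnb2 and Cdk1 were chosen to show the G2/M arrangement, and Mcm3 and Mcm7 to show that of G1/S.

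Ccnb2 (G2/M, chr9:70421505-70421804, minus strand): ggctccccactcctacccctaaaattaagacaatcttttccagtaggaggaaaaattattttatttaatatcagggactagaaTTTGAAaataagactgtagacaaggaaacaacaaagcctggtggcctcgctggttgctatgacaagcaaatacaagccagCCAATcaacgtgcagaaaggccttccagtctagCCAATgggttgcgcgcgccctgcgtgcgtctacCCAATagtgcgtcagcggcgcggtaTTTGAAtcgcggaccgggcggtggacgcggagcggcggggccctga
Cdk1 (G2/M, chr10:69352863-69353162, minus strand): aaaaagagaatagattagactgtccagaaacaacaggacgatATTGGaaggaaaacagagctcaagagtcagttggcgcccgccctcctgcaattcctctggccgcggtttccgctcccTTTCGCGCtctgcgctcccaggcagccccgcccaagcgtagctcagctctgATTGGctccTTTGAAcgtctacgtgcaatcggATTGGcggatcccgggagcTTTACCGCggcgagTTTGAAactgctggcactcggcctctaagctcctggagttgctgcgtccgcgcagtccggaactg
Mcm3 (G1/S, chr1:20820263-20820562, minus strand): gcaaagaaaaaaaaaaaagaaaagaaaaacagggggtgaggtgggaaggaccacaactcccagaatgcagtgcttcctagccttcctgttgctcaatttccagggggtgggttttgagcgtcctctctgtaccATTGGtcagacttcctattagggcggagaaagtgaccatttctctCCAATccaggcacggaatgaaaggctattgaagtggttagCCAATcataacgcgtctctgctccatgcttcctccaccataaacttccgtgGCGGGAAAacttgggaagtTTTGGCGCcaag
Mcm7 (G1/S, chr5:138171834-138172133, minus strand): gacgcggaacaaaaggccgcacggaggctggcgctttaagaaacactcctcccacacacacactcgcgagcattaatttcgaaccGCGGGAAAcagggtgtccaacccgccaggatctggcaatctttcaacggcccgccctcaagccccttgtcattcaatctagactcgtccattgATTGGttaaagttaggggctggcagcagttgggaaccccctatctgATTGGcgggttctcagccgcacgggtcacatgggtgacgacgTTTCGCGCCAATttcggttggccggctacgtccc

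The Ccnb2 window held 3 CCAAT boxes and 2 CHR elements, and that of Cdk1 held 3 CCAAT boxes, 2 CHR elements and 2 E2F sites. The windows printed for Mcm3 and Mcm7 held 3 CCAAT boxes, 2 E2F sites and 0 CHR elements each. Mcm7 has another window in the table (chr5:138171217-138171516, minus strand), which held 1 CCAAT box and 0 of the other motifs. In the printed Mcm7 window an E2F site and a CCAAT box overlap near the 3′ end. Over the 15 windows of G2/M genes, 66.7% held a CHR element, against 17.9% of the 32851 windows in the table, and 86.7% held a CCAAT box, against 37.4%. A CHR element beside at least 2 CCAAT boxes was present in 46.7% of the G2/M windows and in 2.09% of all windows. Among the 11 windows of G1/S genes, 45.5% held an E2F site, against 5.17% of all windows, 9.09% held a CHR element, and 72.7% held a CCAAT box, which was thus frequent in both phases. Cdk1 was the 1 G2/M gene with an E2F site of this form. The windows of E2f1 and Ccne1 (G1/S) and of Nusap1 and Birc5 (G2/M) held none of the 3 motifs, which says only that these letters are not in them. The E2f1 window holds bases that read as E2f1 coding sequence. It may therefore miss the promoter of the main transcript, yet the G1/S shares count it as holding no motif. These matches describe sequence and no binding was measured.

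Every member was detected in every library. Together the 32 genes took 0.356% to 0.442% of the counts of each library. Levels were compared between genes per kb of exonic length (CPM per kb, CPM being the count scaled to library size). On that scale the G2/M genes ran from 8.87 for Foxm1, the transcription factor of the group, to 67.4 for Ccnb2, a B-type cyclin, which placed them between percentiles 60.9 and 95.7 of tested genes. Mki67, which encodes the Ki-67 proliferation antigen, reached 52.9, Top2a, the DNA topoisomerase that untangles chromosomes, 51.3, and Ccna2, the S and G2 cyclin, 47.8 CPM per kb. The G1/S genes ran from 4.92 for Ccne1 to 55.5 for the clamp gene Pcna (percentiles 44.9 and 94.5). The helicase genes spanned 8.30 (Mcm2) to 38.2 (Mcm6) CPM per kb, whereas the entry regulators Ccne1, Ccne2 and E2f1 stayed between 4.92 and 7.05.

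Epithelial markers were abundant. Basal keratin Krt14 stood at 3528 ± 88.1 CPM with biglycan and 3745 ± 358 CPM without (SD, n = 5 each, as for all group values), and the luminal marker Epcam at 1119 ± 24.2 and 1136 ± 43.0 CPM. Lymphocyte markers summed to at most 0.0517 CPM per library, with 7 of 8 at 0 in every library. Of 8 endothelial markers 1 passed the filter, and their sum lay between 5.19 and 6.61 CPM. The sum over 9 fibroblast markers, of which 4 passed the filter, was 46.4 to 52.8 CPM in BGN and 40.5 to 59.4 CPM in Control. Pdgfra alone made up most of it, at 39.5 ± 2.27 and 38.0 ± 6.79 CPM. Of the 9 myeloid markers, Adgre1 and Tyrobp were at 0 and Cd14 alone made up nearly all of the sum, at 403 ± 15.9 and 402 ± 26.8 CPM. Library totals were 18292624 to 21820560 counts. Mitochondrially encoded genes took 1.16% of the counts of Control replicate 5 and 1.80% to 2.27% of those of the remaining 9 libraries.

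No difference with biglycan was detected in these genes. Of the 32 members 0 were called higher and 0 lower in BGN (edgeR quasi-likelihood test, Benjamini-Hochberg adjusted over 14415 genes, smallest adjusted p of a member 0.945), as 0% of all genes were. At an unadjusted p under 0.05 stood 1 member, or 3.12%, against 4.81% of all tested genes, and DESeq2 and limma-voom also called 0 members, with 1 each at that unadjusted level. The BGN and Control libraries overlapped for every member, whereas 0.728% of all tested genes did not overlap. The estimates were narrow. Allowing 1.2-fold up or down, 29 of 32 members had their 95% interval inside that band (61.4% of all tested genes), the exceptions being Mcm2, Mcm5 and Ccne2. Allowing 1.5-fold, all 32 did (84.9%). Those shares take in tested genes averaging under 50 counts, whereas member means were 258 counts or more. They were not matched for counts, so the contrast is not a trait of the members. Across the members these intervals reached from 0.826-fold, for Mcm2, to 1.28-fold, for Ccne2. In bulk RNA, fewer dividing cells and less transcript per dividing cell cannot be told apart.

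**Figure D1:**
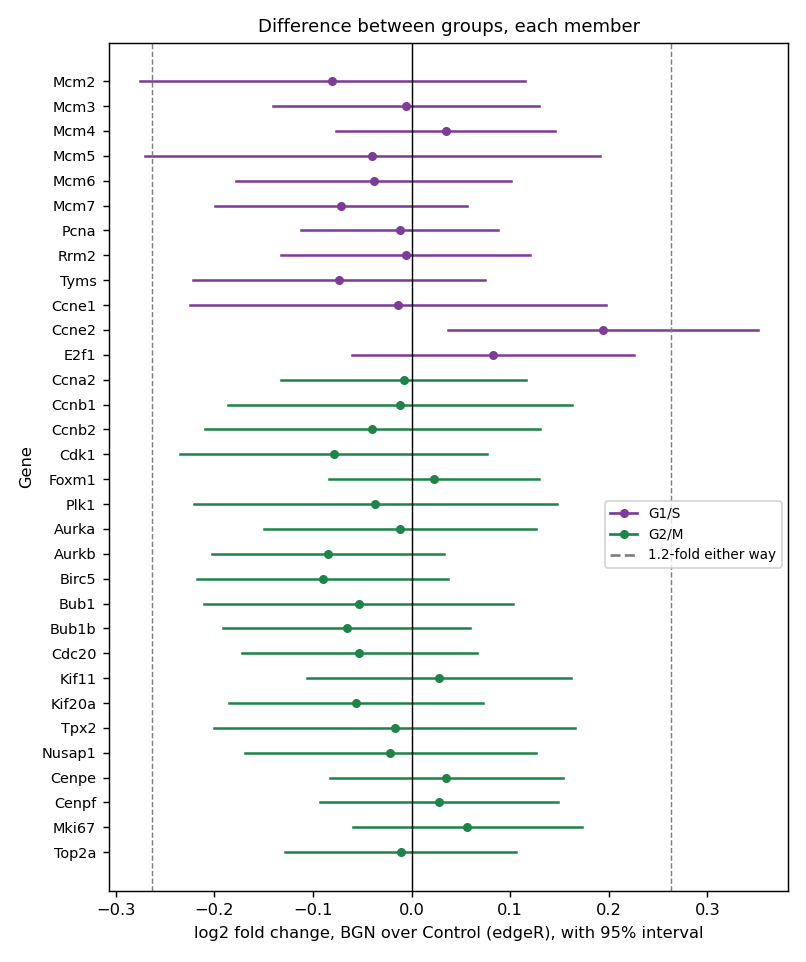
Fold change of each member on the log2 scale, BGN over Control, with its 95% interval from the edgeR fit over 5 libraries a group. Dashed lines mark 1.2-fold. The interval of Ccne2 is the 1 that lies wholly above 0 and it crosses the upper dashed line, and those of Mcm2 and Mcm5 reach past the lower dashed line.

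Small estimates leaned below 0. Of the G2/M genes 5 were above and 15 below 0 (median log2 fold change -0.019), and of the G1/S genes 3 were above and 9 below (median -0.013), beside 48% above and 52% below 0 and a median of -0.0040 over all tested genes. None of these estimates passed the test, and the size of the lean depended on which libraries were in the fit. Leaving out 1 library at a time moved the median from -0.060 to 0.031 for G2/M and from -0.083 to 0.022 for G1/S. Without Control replicate 4 the count turned to 21 above and 11 below 0, without BGN replicate 3 to 19 and 13, and without BGN replicate 1 to 16 and 16. Without any other single library most estimates stayed below 0. The counts ran from 7 above and 25 below, without BGN replicate 5 or Control replicate 2, to 12 and 20, without Control replicate 3. With the replicates numbered 5 of both groups left out, it was 4 above and 28 below, with medians of -0.086 and -0.082.

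The replicative helicase is a ring of MCM2 to MCM7 loaded at origins in G1. Its 6 genes had log2 fold changes from -0.080 (Mcm2) to 0.034 (Mcm4). In replicates 1 to 5 of BGN, Mcm2 was at 49.6, 54.8, 48.6, 61.5 and 65.9 CPM, and in those of Control at 56.9, 52.3, 58.8, 68.3 and 60.6 CPM. Mcm6 stood at 168, 172, 162, 171 and 207 CPM in BGN and at 186, 163, 172, 200.5 and 183 CPM in Control. For both genes BGN replicate 5 and Control replicate 4 were the highest of their group, and the groups overlapped over most of their range. Of the 6 helicase genes 4 peaked in BGN replicate 5 and 2 in Control replicate 4. Mcm5 varied most among them, from 66.5 to 95.03 CPM, a 1.43-fold range over the 10 libraries.

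The clamp gene and the nucleotide suppliers differed little in their group means. Pcna stood at 133 ± 8.72 CPM with biglycan and 134 ± 7.12 CPM without (log2 fold change -0.012, 95% interval -0.11 to 0.088). Rrm2, the regulated subunit of ribonucleotide reductase, was at 70.8 ± 7.42 and 71.2 ± 3.81 CPM, and Tyms, thymidylate synthase, at 34.1 ± 4.07 and 36.0 ± 2.36 CPM (log2 fold changes -0.0061 and -0.074). None passed the test.

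Among the entry regulators, Ccne2, a cyclin E gene, had the largest estimate of all 32 members with all libraries in the fit. It was at 25.1, 27.1, 24.0, 25.1 and 29.99 CPM in replicates 1 to 5 of BGN and at 24.0, 22.01, 24.0, 25.4 and 19.5 CPM in those of Control. All 5 BGN libraries lay above the Control median, but Control replicate 4 stood above 3 of them. The log2 fold change was 0.19 ± 0.076 (SE, 95% interval 0.037 to 0.35), with an adjusted p of 0.945 by edgeR and estimates of 0.14 to 0.23 without single libraries. It was not the largest in every setting. Without BGN replicate 5 it was 0.14, while Mcm2 was at -0.145. With both replicates numbered 5 left out, the estimate was 0.088. That was smaller in size than those of many other members, Cdk1 (-0.16) and E2f1 (0.12) among them. Ccne2 shares 609 exonic bases, or 17.4% of its exonic length, with Ints8 on the opposite strand, an Integrator subunit gene with a mean of 1595 counts against 485 for Ccne2. The strand setting of the counting is not given, so reads of the pair may not be separable; the estimate of Ints8 was 0.0088 (95% interval -0.076 to 0.094). The other cyclin E gene, Ccne1, was at 13.0 ± 2.28 and 13.2 ± 1.05 CPM, a log2 fold change of -0.014.

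E2f1, an activator E2F, had the lowest SD within groups of all members. Its level was 17.7, 18.3, 18.05, 18.1 and 17.05 CPM in replicates 1 to 5 of BGN and 18.4, 15.9, 16.1, 16.1 and 17.7 CPM in those of Control (log2 fold change 0.082, 95% interval -0.061 to 0.23). That SD, 0.072 on the log2 scale, was below the 0.078 that counting error alone gives at its depth. For the other 31 members the SD within groups exceeded counting error.

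Of the G2/M cyclins, their kinase and their activator, 1 estimate was above and 4 were below 0. Ccnb1 was at 140.5, 157, 133, 159 and 158 CPM in replicates 1 to 5 of BGN and at 157, 144, 161, 169 and 124 CPM in those of Control (log2 fold change -0.012, interval -0.19 to 0.16). Cdk1, the mitotic kinase, stood at 103, 108, 98.6, 115 and 119 CPM in BGN and at 130, 103, 117, 125 and 100.3 CPM in Control (-0.079, interval -0.23 to 0.077). The lowest Ccnb1 value and the second lowest of Cdk1 came from Control replicate 5, and the highest of Cdk1 from Control replicate 1. The Control group spanned more than BGN for both genes. Foxm1, at 51.5 ± 2.66 and 50.7 ± 2.55 CPM, had the smallest range of the 32, 1.14-fold over the 10 libraries.

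All 7 genes of mitotic kinases, the passenger complex, the spindle checkpoint and mitotic exit had estimates below 0, and 0 passed the test. They ran from -0.090 for Birc5, which encodes the passenger protein survivin, to -0.012 for the kinase gene Aurka. Plk1, polo-like kinase 1, was at 66.6, 73.2, 66.8, 78.9 and 75.02 CPM in replicates 1 to 5 of BGN and at 70.9, 64.2, 79.9, 88.9 and 66.2 CPM in those of Control. Each of the 7 genes peaked in Control replicate 4. Without that library the estimate of Plk1 was 0.038, of Aurka 0.039 and of the checkpoint kinase gene Bub1 0.0047, while Aurkb, Birc5, Bub1b and Cdc20 stayed below 0.

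Spindle motors, spindle factors and kinetochore genes split 3 above and 3 below 0. Tpx2, which nucleates spindle microtubules, was at 179 ± 17.96 and 181 ± 19.8 CPM, and Kif11, the motor that separates spindle poles, at 172 ± 8.88 and 169 ± 18.8 CPM. Kif20a, a motor of cytokinesis, shares 29.3% of its exonic length with Cdc23 on the opposite strand, a limit as for Ccne2. In all 6 members share exonic bases with an expressed gene on the opposite strand. The other 4 are Ccna2 (12.5% of its length, with Exosc9), Mcm7 (7.25% with Ap4m1 and 1.45% with Cops6), Nusap1 (4.24% with Oip5) and Cdc20 (2.84% with Elovl1). Cenpf, a kinetochore protein gene, stood at 182, 211, 173, 175 and 179 CPM in BGN and at 169, 170, 193, 198 and 172 CPM in Control. Its highest library, BGN replicate 2, was also that of Cenpe, the kinesin gene of the kinetochore, and of no other member.

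Mki67 and Top2a carried the most counts. Mki67 was at 529, 581, 492, 534 and 577 CPM in replicates 1 to 5 of BGN and at 495, 495, 546, 588 and 485 CPM in those of Control. The group values of 543 ± 37.0 and 522 ± 44.2 CPM gave a log2 fold change of 0.057 (95% interval -0.060 to 0.17). Top2a stood at 461 ± 27.1 and 464 ± 43.3 CPM (-0.011, interval -0.13 to 0.11). For both genes the highest library was in Control, replicate 4.

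Levels varied from library to library within both groups. Over the 32 genes the ratio of the highest to the lowest of the 10 libraries, both groups pooled, was 1.14 to 1.57. The median SD within groups was 0.12 on the log2 scale, against 0.0997 over the 11965 genes averaging 50 counts or more. Gene by gene the SD exceeded the size of the log2 fold change for 30 of 32, the exceptions being Ccne2 and E2f1. The share over all genes was not computed, so that count describes the members only. The members moved together. Of the 32 genes, 20 were highest in Control replicate 4 and 8 in BGN replicate 5, and 15 were lowest in BGN replicate 3 and 7 in Control replicate 5. Among G2/M genes all 190 pairs had a correlation above 0 over the 10 libraries (median r = 0.79), and among G1/S genes 56 of 66 pairs did (median r = 0.76). With group means removed the medians were 0.82 and 0.77. Each gene was also set against the mean of its own phase computed without it, and r exceeded 0.7 for 19 of 20 G2/M and 10 of 12 G1/S genes. Of the 11965 genes averaging 50 counts or more, 4.91% exceeded 0.7 with the G2/M mean and 5.76% with the G1/S mean. The exceptions were Cenpf (r = 0.50), Ccne2 (r = 0.38) and E2f1 (r = -0.26). All these correlations share the same 10 libraries and their scaling, and describe them only.

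**Figure D2:**
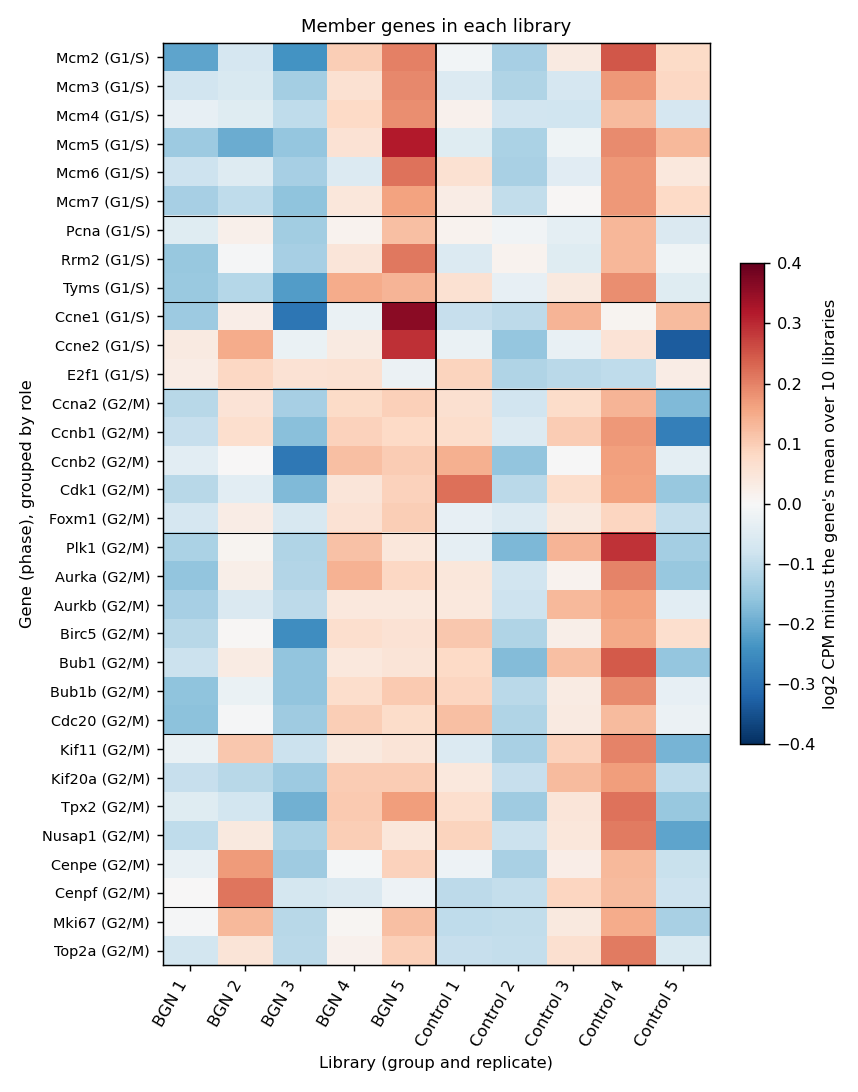
Each row is a member, each column a library, and the colour is the deviation of log2 CPM from the gene's own mean. Control 4 and BGN 5 are red in most rows, BGN 1, BGN 3 and Control 2 blue, while Control 5 is blue in most G2/M rows and mixed in the G1/S rows. The E2f1 row is pale.

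Averaged over its genes as log2 deviation from the mean of the 10 libraries, the G2/M level was -0.011 ± 0.098 in BGN and 0.011 ± 0.12 in Control. The G1/S level was -0.0036 ± 0.13 and 0.0036 ± 0.078. Libraries ran from -0.14 (BGN replicate 3) to 0.17 (Control replicate 4) for G2/M and from -0.14 (BGN replicate 3) to 0.20 (BGN replicate 5) for G1/S. The 2 levels followed each other over the 10 libraries (Pearson r = 0.78, Spearman rho = 0.75, and r = 0.79 without BGN replicate 3 and Control replicate 5, the farthest from the median). With group means removed r was 0.78. Both replicates numbered 5 departed from this relation, with G1/S above G2/M by 0.12 in each, while the other 8 libraries lay between -0.083 and 0.018. Control replicate 5 is also the library with the low mitochondrial share, whose part in this was not tested. Over the 10 libraries r between the mitochondrial share and the G2/M level was 0.48 (rho = 0.52), 0.64 within groups, and 0.63 without Control replicates 1 and 5. Between library totals and the G2/M level r was -0.078 (rho = 0.10).

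BGN replicate 5 and Control replicate 4, the libraries with the highest G1/S levels, had the lowest levels of 10 glycolysis genes, at -0.54 and -0.19 against -0.011 to 0.17 in the other 8. The glycolysis genes were listed after the data were seen. Over the 10 libraries r was -0.89 between glycolysis and G1/S levels (rho = -0.76), and -0.57 with the G2/M level (rho = -0.62). Without those 2 libraries r was -0.63 and -0.49, so the size of the first rests partly on them. Within groups r was -0.93 and -0.63.

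**Figure D3:**
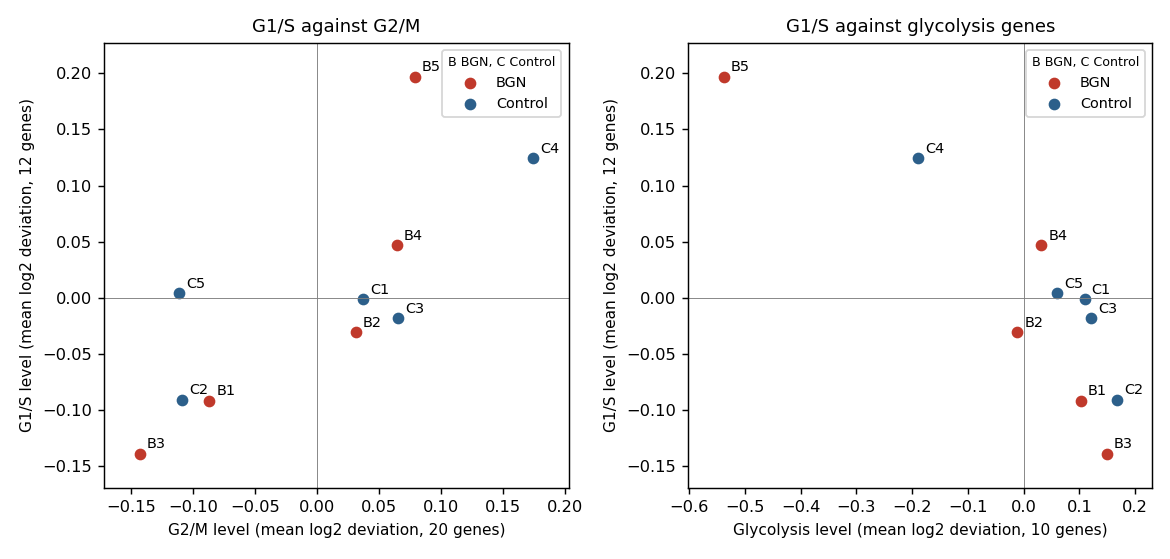
Each point is a library. Left, G1/S level against G2/M level; right, G1/S level against the level of 10 glycolysis genes, all as mean log2 deviation. BGN and Control points are interspersed, B5 and C5 lie above the others at a like G2/M level, and B5 stands far to the left in the right panel.

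Some genes outside the list varied over the libraries much as the phase levels did. Of 11933 other genes with at least 50 counts on average, those most like the G2/M level over the 10 libraries were Kpna2 (r = 0.97), Dbf4 (0.96), Smc2 (0.96), Kif20b (0.96) and Pclaf (0.94). Most like the G1/S level were Dkc1 (0.98), Hnrnpa1 (0.97), Zmiz2 (0.97), Serpine2 (0.96) and Set (0.96). Their log2 fold changes between BGN and Control lay between -0.067 and 0.050, and none passed the test. These genes were picked by that correlation over these same libraries, so their high r follows from the choice. Both phase levels differed little between the groups, so small fold changes go with that choice too.

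Exonic length moved with the sign of the small estimates among G2/M genes. The 6 longest are Cenpf, Mki67, Top2a, Cenpe, Kif11 and Foxm1, of which 5 had estimates above 0, against 0 of the other 14. This cut lies just below Foxm1, the shortest G2/M gene above 0. The 6 longest G1/S genes had 0 above 0, against 3 of the other 6. Over all members it was 4 of the 6 longest, against 4 of the other 26. Across the 20 genes Spearman's rho between exonic length and log2 fold change was 0.59. Across 11729 tested genes of at least 50 counts it was 0.31, across the 12 G1/S genes -0.66, and across all 32 members 0.12. Genes are not independent replicates and no test was made. With the median of tested genes of like length subtracted, a step chosen after seeing the data, the split was 7 above and 13 below 0 for G2/M and 7 above and 5 below for G1/S, with medians of -0.012 and 0.0078.

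**Figure D4:**
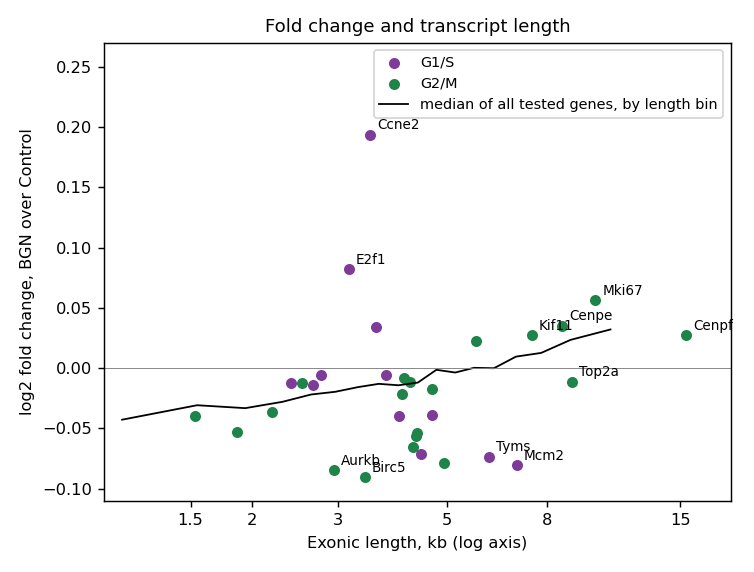
Log2 fold change, BGN over Control, of each member against its exonic length on a log axis; the line is the median of all tested genes in bins of length. The line rises from below to above 0, and the long G2/M genes lie near or above 0.

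In the wider cell cycle machinery no gene was called either. In 10 further lists with 149 genes, all tested, 64 estimates were above and 85 below 0, 0 passed the test, and 6 genes (4.03%) had an unadjusted p under 0.05, against 4.81% of all genes. List medians lay between -0.060 and 0.013. The lowest was that of the CDK inhibitors, which brake the cycle, with 1 of 7 above 0. Cdkn2d (p19INK4D) had the lowest estimate, -0.25 ± 0.087 (log2 fold change, SE), from 10.8 ± 0.573 CPM with biglycan against 12.9 ± 1.27 CPM without, and Cdkn2c (p18INK4C) at 32.8 ± 2.07 and 35.8 ± 1.73 CPM (-0.12); for both the groups overlapped and the edgeR adjusted p was 0.945. The retinoblastoma gene Rb1 had an estimate of 0.12, with 357 ± 15.4 and 330 ± 20.7 CPM and an edgeR adjusted p of 0.945. Its list of pocket proteins, E2F and MuvB genes split 12 above and 6 below 0, with Lin52, a MuvB subunit gene, at 0.16 (95% interval -0.030 to 0.35).

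None of the replication genes outside the 32 passed the test, though some intervals were wide. Origin licensing and firing genes split 8 above and 9 below 0, with Cdc6, a helicase loader, at 0.19 (95% interval -0.034 to 0.42) and Gins1, a helicase cofactor, at 0.19 (-0.046 to 0.42) on the log2 scale. Fork enzymes split 7 and 14, with the clamp loader subunit gene Rfc2 at -0.10 and Rnaseh2a at -0.090. Nucleotide synthesis genes split 5 and 5, with the dUTPase gene Dut at -0.11 and Rrm2b at 0.10. Kinetochore and checkpoint genes split 8 and 14, with Zwint at -0.11 (95% interval -0.20 to -0.020) and Dsn1 at 0.11. Mitotic kinesin and cytokinesis genes split 6 and 12, with Prc1 at -0.070 and Kif2c at -0.071, and followed the G2/M level closely (median r = 0.85). Condensin and cohesin genes split 9 and 4, with Ncaph2 at -0.097 (95% interval -0.19 to -0.0040) and Stag2 at 0.048. Mitotic entry and exit genes split 3 and 13, with Anapc11, a subunit of the anaphase-promoting complex, at -0.20 (95% interval -0.37 to -0.027) and the securin gene Pttg1 at -0.15. D cyclins and interphase kinases split 5 and 2, with Cdc25a at 0.083 and Cdk4 at -0.059. The intervals of Zwint, Ncaph2 and Anapc11 exclude 0 before adjustment, and none of these genes passed the adjusted test.

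Some regulators followed the G1/S level from library to library without differing between the groups; these 3 were picked after their values were seen. Ccnd1, cyclin D1, was at 508 ± 30.3 and 507 ± 20.9 CPM in the BGN and Control groups, with r = 0.91 against the G1/S level. Cdkn1b (p27) stood at 164 ± 10.4 and 159 ± 12.9 CPM with r = -0.73, and Cdkn1a (p21) at 91.9 ± 7.83 and 95.8 ± 7.79 CPM with r = -0.68. Their log2 fold changes were 0.0031, 0.038 and -0.060. The other 5 CDK inhibitor genes had r above 0 with the G1/S level, from 0.024 (Cdkn2b) to 0.36 (Cdkn2c), and the median over all 7 was 0.17.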

How the data were processed

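Poly-A selected RNA of 10 samples was sequenced. The authors deposited raw whole-number counts, with genes as rows. Tools listed in the submitters' processing notes are HISAT2 2.2.1, HTSeq, cutadapt 1.9.1, DESeq2 and FastQC, beside the build GRCm39. For the annotation release and strand setting nothing was stated in the sources used here. The members, gene lists and rules were chosen with earlier results of these data known.

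Groups and replicate numbers came from the titles. The robust quasi-likelihood test of edgeR 4.0.16 (R 4.3.3), after filterByExpr and TMM scaling, had treatment as its single term, a call being an adjusted p under 0.05. SE and 95% intervals came from the fold change and its F statistic. CPM uses TMM scaling, and levels and correlations use log2 CPM with a prior count of 2. Exonic lengths and overlaps came from GENCODE M21 (another build, GRCm38), with lengths for 97.7% of tested genes. A length counts all bases in any annotated exon of the gene, which can exceed the length of the expressed transcript. Levels per kb and length trends share that limit. No coordinates of the counted build are given. The steps were tested on simulated data. Named genes were all members, the 2 of smallest p in each further list, the 5 most like each phase level, and markers, the latter given mostly as sums. Ccnd1, Cdkn1a, Cdkn1b and Ccnd2 fall outside this rule and were named after their values were seen. Alternatives were other scalings and filters, DESeq2 1.42.0, limma-voom (limma 3.58.1), the replicate block, left-out libraries and, added later, a length adjustment.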

Additional observations from a re-analysis of the deposited data

Results flagged for a closer look

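In 168 groups of 5 libraries examined, 6 held a library whose gap to the nearest other, divided by the range, exceeded 0.71; chance gives about 1 in 20. Of the members, Mcm6 was at 207 CPM in BGN replicate 5, against 162 to 172 CPM in the other BGN libraries, and Cenpf at 211 CPM in BGN replicate 2, against 173 to 182 CPM. Ccnd2 stood at 5.30 CPM in BGN replicate 1, below 7.39 to 8.16 CPM in the rest. Dsn1 was at 26.5 CPM in BGN replicate 5 against 22.01 to 22.9 CPM. In the same library Krt17 was at 114 CPM against 146 to 156 CPM. Krt19 was at 984 CPM in Control replicate 5 against 760 to 808 CPM in the other Control libraries.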

How the results depend on the processing

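Members called stayed at 0 under all 18 alternatives of fit or libraries, with adjusted p of at least 0.706, but the medians of both phases changed sign under some. Without single libraries they ran from -0.060 to 0.031 (G2/M) and -0.083 to 0.022 (G1/S), without both replicates 5 they were -0.086 and -0.082, and with the length adjustment -0.012 and 0.0078. Over all genes 3 were called without the filter on low counts (none a member) and 0 under each other setting, DESeq2 included. The replicate block called 0 genes; same-numbered libraries correlated between -0.020 and 0.20, below 0.1 in 4 of 5 pairs, so the numbers were not taken to pair samples. Of 576 member estimates 524 kept their sign. Without BGN replicate 5 and Control replicate 5 together, Mcm4 turned to -0.022, Foxm1 to -0.020, Kif11 to -0.021 and Cenpe to -0.00021. Leaving out single libraries, the 19 members whose sign turned ranged from -0.057 to 0.039 for Mcm3, -0.0090 to 0.071 for Mcm4, -0.13 to 0.0039 for Mcm5, -0.10 to 0.0012 for Mcm6, -0.044 to 0.020 for Pcna, -0.063 to 0.030 for Rrm2, -0.12 to 0.051 for Ccne1, -0.050 to 0.025 for Ccna2, -0.074 to 0.032 for Ccnb1 and -0.082 to 0.021 for Ccnb2. The range was -0.084 to 0.038 for Plk1, -0.049 to 0.039 for Aurka, -0.10 to 0.0047 for Bub1, -0.013 to 0.084 for Kif11, -0.062 to 0.039 for Tpx2, -0.073 to 0.030 for Nusap1, -0.0036 to 0.074 for Cenpe, -0.025 to 0.064 for Cenpf and -0.036 to 0.043 for Top2a. These are estimates near 0 that no setting called. Counting error was largest for E2f1 and the cyclin E genes, with means of 258 to 485 counts. The SE did not follow depth alone, at 0.10 for Mcm5 and 0.069 for E2f1.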
